A study of Ogataea haglerorum with 3 samples.

Results

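Short genes, taken as the annotated genes of at most 400 bases, were examined in log-phase cells of the haploid budding yeast Ogataea haglerorum. The length given in the deposited table alone chose them: 284 of 5345 genes (5.31%) qualified, from 146 to 399 bases long, with a median of 321 bases. The 4741 genes above 400 and up to 3000 bases, with a median of 1188 bases, served for comparison and are called comparison genes. The remaining 320 genes were longer and were set aside. Polyadenylated RNA was sequenced in 1 group of 3 libraries, numbered 1, 4 and 5, of the strain Phaff 81-453.3. The cultures were grown in YPD, a rich glucose medium, at 30 °C to an optical density of 0.8 to 1.2. All 3 libraries share this strain, medium and growth phase, and no second condition was analysed here. The labels do not state that each library had its own culture, so the spread between libraries may be technical. The labelled cell type was not checked against marker genes, because the files pair no gene with a name.

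In budding yeasts, several well-known kinds of protein are encoded by short genes, among them many ribosomal proteins, core histones, and small subunits of the respiratory chain and of the mitochondrial ATP synthase. Many of these are needed in large amounts by growing cells. Short reading frames are also the hardest to tell from reading frames that arise by chance, so annotations of short genes hold more doubtful models than those of long genes. Ogataea species are methylotrophic yeasts, able to use methanol as a carbon source. RefSeq (assembly ASM1920728v1) matched 283 of the 284 short genes by locus tag, listed all 283 as protein coding, and gave 0 of them a name. No function is therefore assigned to any gene below.

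The gene models of 275 of the 283 matched short genes had equal lengths in both annotations, and 8 differed. KL911_000780 spanned 306 bases in the deposited table and 3423 in RefSeq, KL911_000811 spanned 282 and 2265, KL911_005371 spanned 375 and 878, and KL911_005404 spanned 320 and 477. These 4 are thus short in the authors' annotation only. The other 4 differing genes were between 146 and 384 bases long in the deposited table, and of at most 390 bases in RefSeq.

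Libraries 1, 4 and 5 held 34047362, 44734719 and 34526996 counts in genes. The short genes received 4.11%, 4.24% and 4.30% of these counts. Their median gene had 898.5, 1195 and 898 counts, against 2111, 2738 and 2109 for the comparison genes. Levels are given in TPM, the authors' counts per base of gene scaled to the same total in each library. At the median length of a short gene, 1 count was worth 0.0953, 0.0723 and 0.0933 TPM. At the median length of the comparison genes it was worth 0.0257, 0.0195 and 0.0252 TPM. Few counts therefore moved the TPM of a short gene further. A count of 0 allows up to 3 counts, which is 0.286, 0.217 and 0.280 TPM at the median short length. Such limits cover counting error only, since PCR copies of a molecule are counted as separate reads.

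Short genes were on the whole at a higher level per base than longer genes, and spread over a wider range. Their median was 84.1, 80.1 and 82.6 TPM in libraries 1, 4 and 5, against 52.4, 50.9 and 51.7 TPM for the comparison genes. All 3 short medians lay above all 3 comparison medians. On the scale of log2(TPM + 1), the short median was higher by 0.66 ± 0.02 (SD, n = 3). An exact sign-flip permutation test over the 3 libraries, two-sided, gave p = 0.25, the smallest value that 3 libraries allow. The short genes held 14.4% ± 0.27 of all TPM (SD, n = 3). Between their 10th and 90th percentiles lay a range of 1056-fold ± 300, against 73.9-fold ± 3.19 for the comparison genes (SD, n = 3).

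TPM divides by the annotated length, the quantity that chose these genes, so its definition bears on this difference. A read of 150 bases can be assigned to a gene that it overlaps only in part, which adds proportionally more reads to a short gene. Per the labels the reads were single ones of 150 bases, while the counting command carried the option for read pairs. TPM was recomputed, taking each count as 1 such read, with the number of start positions from which a read overlaps the gene. The short median then was 68.0 ± 1.33 TPM and the comparison median 55.1 ± 1.24 TPM (SD, n = 3), and the log2 difference was 0.30 in place of 0.66. Among genes of at most 300 bases, with deposited TPM, it was 0.25.

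The short genes did not fall cleanly into a high and a silent group. A mean TPM under 5, called near-silent here, was found for 44 (15.5%, exact 95% binomial interval 11.5% to 20.2%), against a background of 10.7% of all 5345 genes. A mean TPM over 1000, called very high, was found for 32 (11.3%, interval 7.84% to 15.5%), against a background of 3.35% of all genes. The other 208 short genes (73.2%) lay between these limits. In the comparison genes the shares were 10.8% near-silent (interval 9.93% to 11.7%) and 3.08% very high (interval 2.61% to 3.61%). The intervals for very high genes thus stood apart, while those for near-silent genes overlapped. These intervals cover the number of genes only and take genes as independent. The shares held in each library: 44, 43 and 44 short genes were near-silent, and 32 were very high in every one. The class was the same in all 3 libraries for 278 of the 284 short genes, and 0 passed from very high in 1 library to near-silent in another.

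The middle of the distribution was thinned on its lower side. From 5 to 20 TPM lay 25 short genes (8.80%), against 12.9% of the comparison genes, and from 20 to 100 TPM lay 87 (30.6%), against 45.9%. From 100 to 300 TPM the shares were 23.9% and 20.1%, and from 300 to 1000 TPM 9.86% and 7.28%. Above 3000 TPM stood 13 short genes (4.58%), against 44 comparison genes (0.928%). At the upper limit, the gene just inside was KL911_004799 with 1103 TPM and the gene just outside KL911_005013 with 900 TPM. At the lower limit, KL911_000058 had 4.87 TPM and KL911_003220 had 5.27 TPM.

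**Figure D1:**
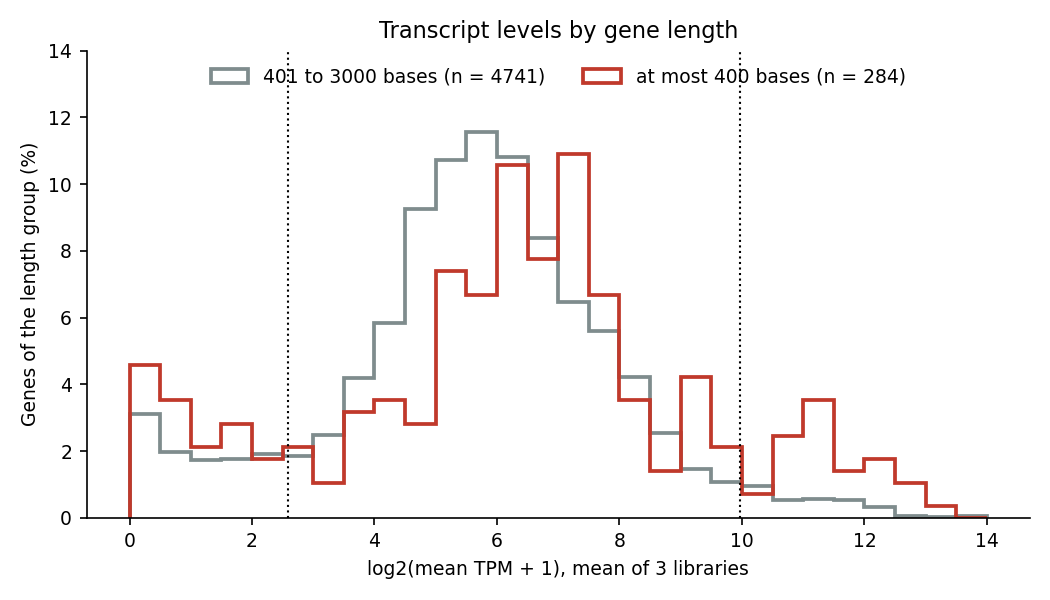
Share of genes (vertical axis, % of the length group) by log2(mean TPM + 1) over 3 libraries, for the 284 genes of at most 400 bases (red) and the 4741 comparison genes (grey); dotted lines mark 5 and 1000 TPM. Most red steps lie above the grey ones at both outer sides, with 15.5% of short genes under 5 TPM and 11.3% over 1000 TPM.

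By deposited TPM, the very high short genes were among the most abundant transcripts of the cell. With TPM by overlapping start positions 31 short genes were over 1000 TPM, and ranks were not computed. They held 77.1% of all TPM of the short genes, while the 44 near-silent ones held 0.0446%. Short genes were 4 of the 10 highest genes, 23 of the 100 highest and 32 of the 179 genes over 1000 TPM (17.9%). The highest was KL911_004296, of 246 bases, on chromosome 7 (663878 to 664123, plus strand) in the authors' coordinates. It had 10627, 10165 and 10684 TPM in libraries 1, 4 and 5, from 85475, 107813 and 87742 counts, a mean of 10492 ± 284 TPM (SD, n = 3). It had rank 4 of all genes.

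KL911_004747 and KL911_005188 followed it as neighbours on the minus strand of chromosome 4. KL911_004747, of 168 bases at 1144383 to 1144550, had 7844, 7979 and 7948 TPM. KL911_005188, of 179 bases at 1145584 to 1145762, had 6841, 7226 and 8011 TPM. No gene was annotated in the 1033 bases between them. In every library both were above every other short gene except KL911_004296 and, in library 4, KL911_002240. This order depended on the definition of TPM. With overlapping start positions KL911_004747 had a mean of 5064 TPM, KL911_002240 4900 TPM and KL911_005188 4844 TPM. Beyond them on the far side of KL911_005188, the next gene had 1.06 TPM.

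KL911_002240, of 264 bases on chromosome 6 (112346 to 112609, minus strand), had 6436, 8256 and 4379 TPM. Its SD was 30.5% of its mean, the widest among the 32 very high short genes, where this SD had a median of 5.69% and a lowest value of 0.888%. KL911_003812, of 267 bases on the same chromosome (1192033 to 1192299, plus strand), had 4698, 5397 and 4167 TPM. Library 5 was the lowest for both of these genes, and library 4 the highest.

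KL911_005387, of 179 bases on chromosome 1 (397858 to 398036, plus strand), had 4582, 4884 and 5294 TPM. KL911_000435, of 324 bases on chromosome 3 (200401 to 200724, minus strand), had 4789, 4716 and 5060 TPM. KL911_000666, of 387 bases on chromosome 2 (182873 to 183259, minus strand), had 4451, 4667 and 5019 TPM. In these 3 genes library 5 was the highest. The same held for KL911_003410 on chromosome 5, at 254819 to 255163, with 3923, 3996 and 4372 TPM, and for KL911_004094 on chromosome 3, at 1266237 to 1266560, with 3463, 3596 and 3819 TPM. Very high short genes stood on all 7 chromosomes, with 8 on chromosome 2 and 1 on chromosome 7.

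**Figure D2:**
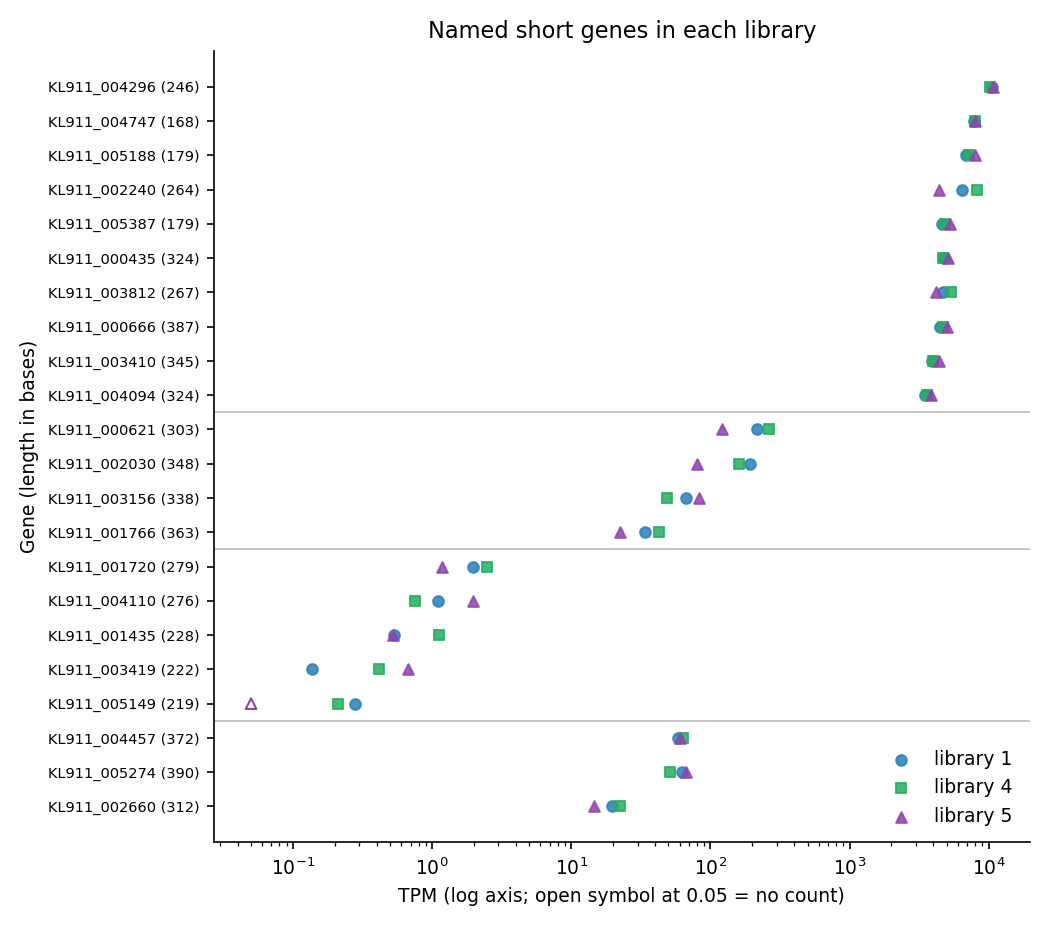
TPM (log axis) in libraries 1, 4 and 5 of named short genes, with the length in bases in parentheses; from top to bottom, grey lines part the 10 highest, those with the highest ratio between libraries, those farthest below their neighbours, and the 3 highest within 20 kb of a chromosome end. KL911_002240 is the most spread of the 10 highest (4379 to 8256 TPM), and the open symbol marks a library with no count.

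Near-silent short genes rested on few reads. Their median mean count was 11.3, and fewer than 10 counts were seen in 1 or more libraries for 29 of the 44. These were all of the short genes with so few counts (10.2% of short genes, against 3.06% of the comparison genes). The class limit leaves little room for another outcome, because 1 count was worth at most 0.0953 TPM at the median short length. A shorter gene also has fewer counts at equal TPM. No library gave a count for 6 short genes, 4 of them within 5.14 kb of a chromosome end. KL911_002667 on chromosome 1, the last gene at the right end, was the shortest gene with 146 bases in the deposited table, but had 345 in RefSeq. At 146 bases, 3 counts would equal 0.628, 0.477 and 0.615 TPM in it. Next to it, KL911_002668 of 383 bases also had 0 counts. At the left end of that chromosome, KL911_004453 had 0 counts and overlapped by 61 bases with KL911_005409, which runs on the opposite strand and had 0, 3 and 0 counts. These are the only members that overlap another gene.

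Away from the ends, 2 short genes without a count each had at least 1 neighbour above the near-silent limit. KL911_000149, of 213 bases on chromosome 3 (652491 to 652703, minus strand), stood between genes at 31.5 and 86.4 TPM. KL911_001400, of 329 bases on chromosome 5 (1024329 to 1024657, minus strand), stood between genes at 18.9 and 3.57 TPM, 92 and 17 bases away. A floor of 3 counts bounds KL911_001400 at 0.279, 0.211 and 0.273 TPM. Whether reads of these genes map to several places was not tested, and the counting command set no option to keep such reads.

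Level did not rise or fall in a single direction with length among the short genes. Of the 4 genes up to 200 bases, 3 were very high and 1, KL911_002667, had no count. The latter is longer than 200 bases in RefSeq, with 345. The 42 genes above 200 and up to 250 bases had the lowest median, 22.4 TPM, and the highest near-silent share of any length class up to 3000 bases, 12 of 42 (28.6%). The shortest length in that class was shared by 3 genes with unlike levels. KL911_000544, on chromosome 3 at 25135 to 25335, had 3.96, 6.81 and 8.49 TPM. On chromosome 4, KL911_004901 had 812, 910 and 905 TPM and KL911_001678 had 92.5, 103 and 102 TPM. In the next classes, up to 300, 350 and 400 bases, the medians were 87.9, 102 and 80.5 TPM. Across the short genes, Spearman's rho between length and mean TPM was 0.115 (n = 284 genes, which share the same 3 libraries), against -0.111 in the 4741 comparison genes.

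Apart from the 4 genes up to 200 bases, the share of very high genes was highest just below the limit of 400 bases. In successive classes that share was 4.76% up to 250 bases, 6.25% up to 300, 12.2% up to 350 and 14.1% up to 400. Above the limit it was 9.84% up to 500 bases, 8.03% up to 600 and 3.99% up to 800. In the class from 2000 to 3000 bases it was 1.35%. No interval was computed for these shares. The longest short genes, of 399 bases, spanned the whole range of levels. KL911_002525 on chromosome 2 had 3338, 3398 and 3657 TPM, while KL911_001852 had 54.0, 38.6 and 40.4 TPM and KL911_001688 31.0, 31.6 and 31.5 TPM, both on chromosome 4. Just outside the limit, 3 genes of 402 bases had means of 2058 TPM (KL911_000768), 203 TPM (KL911_003703) and 0.944 TPM (KL911_003245).

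**Figure D3:**
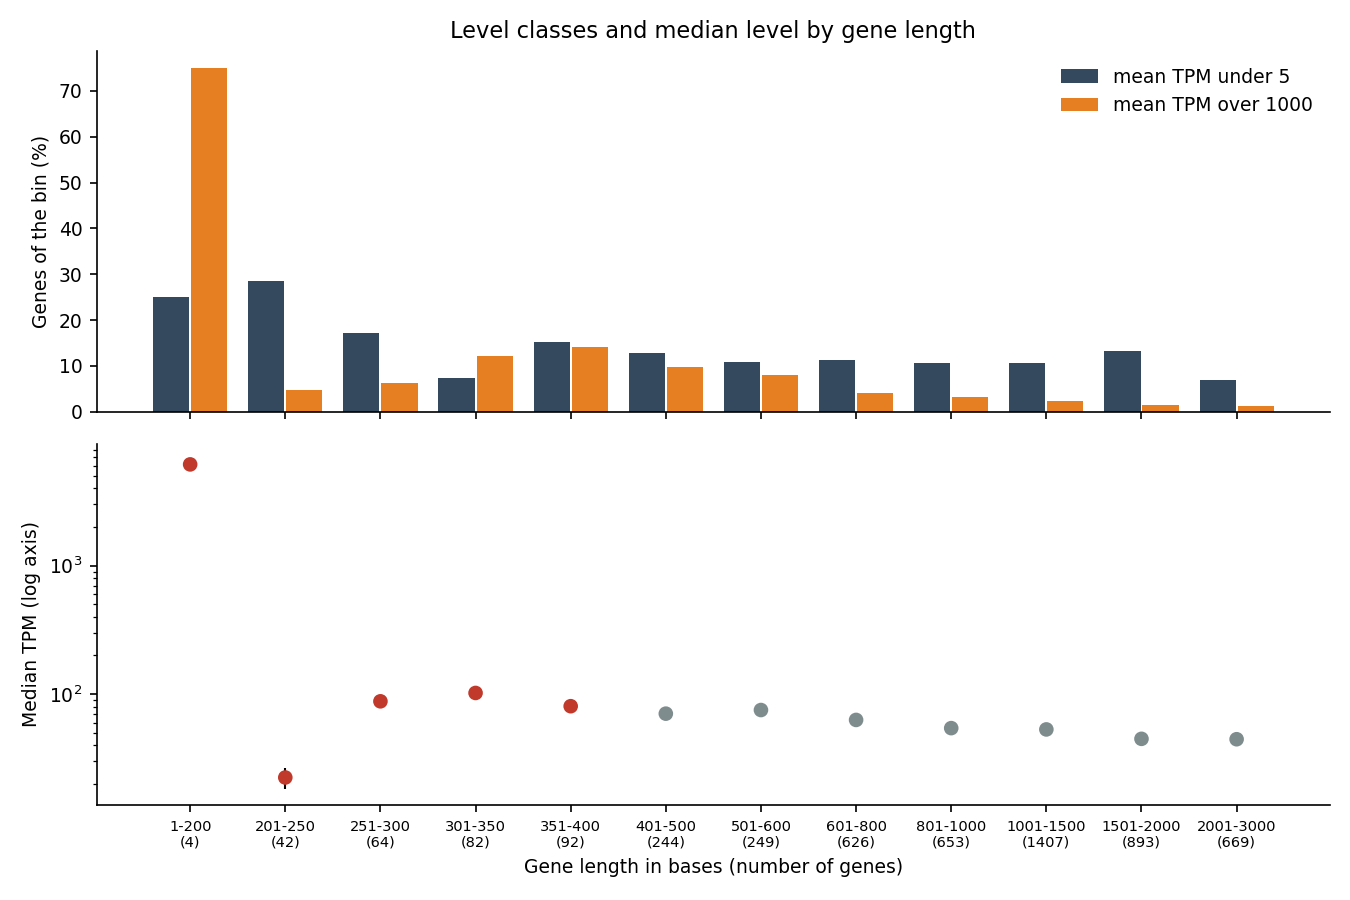
Upper panel: share of genes (%) with a mean TPM under 5 (dark) and over 1000 (orange) by length class in bases, with the number of genes in parentheses. Lower panel: median TPM (log axis), red for classes of at most 400 bases, with bars for the SD of the 3 library medians; the class from 200 to 250 bases is lowest at 22.4 TPM, and the class up to 200 bases holds only 4 genes.

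A length that is a multiple of 3 is needed for an uninterrupted coding frame. Among the short genes 36 (12.7%) had another length, close to 13.1% of the comparison genes. Of the near-silent short genes 11 of 44 (25%, exact 95% interval 13.2% to 40.3%) did so, of those between the limits 20 of 208 (9.62%, interval 5.97% to 14.5%), and of the very high ones 5 of 32 (15.6%). Comparison genes showed the same order, with 22.9%, 11.8% and 17.1%. Such a length can come from an intron or from an incomplete model, which the files do not separate.

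Short genes occurred on every chromosome, from 4.57% of the genes of chromosome 6 (41 of 898) to 6.89% of those of chromosome 4 (54 of 784). The exact 95% intervals of these shares overlapped, at 3.30% to 6.14% and 5.22% to 8.89%. The median level of the short genes was 62.8 TPM on chromosome 1 and 142 TPM on chromosome 4, the lowest and the highest of the 7. A position within 20 kb of a chromosome end was found for 14 short genes (4.93%, interval 2.72% to 8.13%) and for 130 comparison genes (2.74%, interval 2.30% to 3.25%). Distances run from the gene's farther edge, and the right end of a chromosome is the last annotated base.

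Near the ends the short genes were low, as longer genes there were. The 14 short genes within 20 kb had medians of 1.03, 0.487 and 1.16 TPM in libraries 1, 4 and 5, and the 130 comparison genes had 2.07, 1.85 and 1.97 TPM. Near-silent were 9 of the 14 (64.3%) and 86 of the 130 (66.2%), and 0 of the 14 were very high. The highest of the 14 were KL911_004457 on chromosome 1 at 12559 to 12930, with 58.4, 63.7 and 60.1 TPM, and KL911_005274 on chromosome 4 at 1276270 to 1276659, with 62.8, 50.8 and 66.6 TPM. KL911_002660 on chromosome 2 at 1443528 to 1443839 followed with 19.7, 22.2 and 14.5 TPM. All 3 lay below the median short gene.

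Most near-silent short genes were nonetheless far from an end. Beyond 20 kb stood 35 of the 44, and beyond 50 kb 33. Among the 258 short genes over 50 kb from an end, 33 (12.8%) were near-silent and 30 (11.6%) very high, against 7.83% and 3.21% of the 4391 comparison genes there. From 20 to 50 kb, 2 of 12 short genes (16.7%) and 82 of 220 comparison genes (37.3%) were near-silent. The very high short gene closest to an end was KL911_004094, 43.2 kb away.

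**Figure D4:**
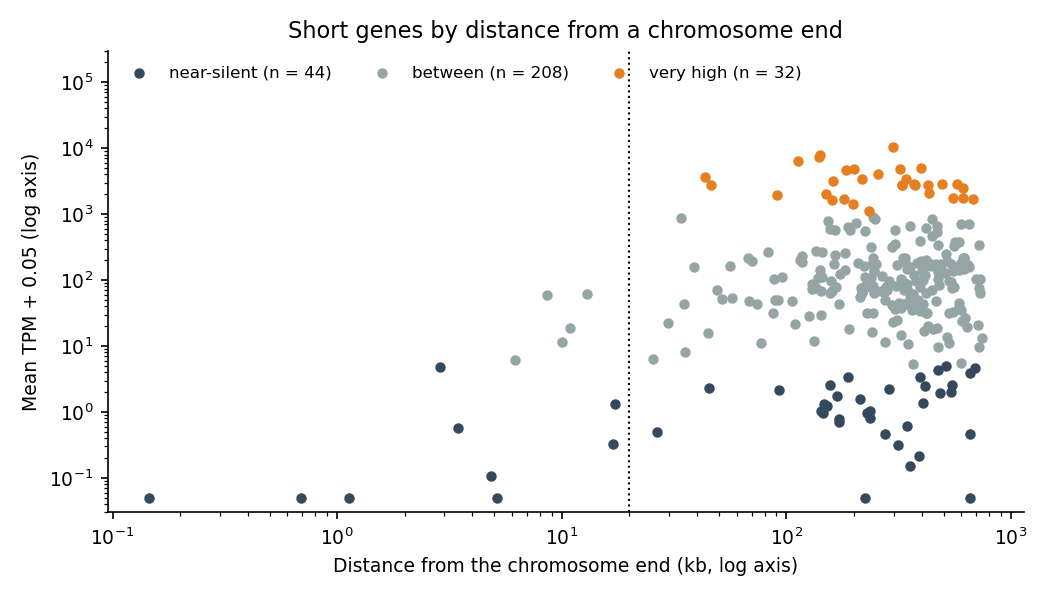
Mean TPM plus 0.05 (log axis) of each of the 284 short genes against its distance from the nearer chromosome end in kb (log axis), coloured by level class; the dotted line marks 20 kb. Left of that line are 14 genes, 9 near-silent and 0 very high, and both outer classes stand side by side at distances over 100 kb.

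The strands held similar numbers of short genes. The plus strand carried 140 of the 284 short genes (49.3%, exact 95% interval 43.3% to 55.3%) and 50.3% of the comparison genes. It carried 17 of the 44 near-silent short genes (38.6%, interval 24.4% to 54.5%) and 17 of the 32 very high ones (53.1%, interval 34.7% to 70.9%). Median levels were 83.0 TPM on the plus strand and 79.2 TPM on the minus strand. The authors' counting used strand, so reads of the opposite strand were not added to a gene.

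By the median distance, the nearer neighbour of short genes was about as close as that of longer ones. The nearer neighbour lay a median of 67.5 bases away (binomial interval of the median 59 to 83), against 59 bases for the comparison genes (57 to 61). A neighbour closer than 1 read length was less frequent for short genes, at 217 (76.4%), than for the comparison genes, at 83.3%. The upstream gap had a median of 144 bases (125 to 175) for short genes and 150 (145 to 155) for comparison genes. Downstream these medians were 99.5 (73 to 125) and 72 bases (69 to 75). Space differed between the level classes but did not follow level steadily. The very high short genes had a median of 287.5 bases free on the upstream side (185 to 427) and 212 downstream (124 to 277). For the short genes between the limits these medians were 121.5 (110 to 146) and 71.5 bases (57 to 98). The near-silent short genes had 173 bases upstream (95 to 328) and 174.5 downstream (125 to 335). Spearman's rho of level against gap was 0.0652 upstream and -0.00344 downstream across the short genes. Very high, between and near-silent comparison genes had 267.5, 141 and 180 bases upstream, and 125, 67 and 112.5 bases downstream.

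The orientation of neighbours also differed between level classes of the short genes. Of the near-silent short genes, 13 of 44 faced a convergent gene downstream (29.5%, exact 95% interval 16.8% to 45.2%). Of the short genes between the limits, 135 of 208 did (64.9%, interval 58.0% to 71.4%), and of the very high ones 16 of 32. In the comparison genes these shares were 46.9%, 56.6% and 47.3%. Among the short genes the near-silent class was lowest, though its interval overlapped that of the very high class (31.9% to 68.1%). In the comparison genes the near-silent and very high shares were nearly equal, with intervals of 42.4% to 51.3% and 38.9% to 55.7%. The difference between the length groups was not tested. A divergent gene upstream was found for 174 of 283 short genes (61.5%, interval 55.5% to 67.2%) and 55.1% of the comparison genes (interval 53.7% to 56.5%).

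Each of the 32 very high short genes exceeded the mean of its 2 neighbours on the log2(TPM + 1) scale, by a median of 4.63. All 146 very high comparison genes did so too, by a median of 4.85, and a class chosen for its high level leaves little room for another outcome. KL911_004296 exceeded it by 8.19, between genes at 32.8 and 37.2 TPM. KL911_000435 exceeded it by 7.92, between genes at 136 and 1.94 TPM, and KL911_005222, with 1954, 1940 and 1995 TPM on chromosome 4, by 7.05, between genes at 13.3 and 14.4 TPM. KL911_001237 on chromosome 5 and KL911_000666 followed with 6.80 and 6.79. A very high neighbour was nevertheless present beside 12 of the 32. Of their 64 neighbours 12 were very high (18.8%), against 24 of 292 (8.22%) beside very high comparison genes. The adjacent pairs KL911_004747 with KL911_005188 and KL911_003453 with KL911_003454 enter the 12 from both sides. No interval was computed for these shares.

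At the other side, 41 of the 43 near-silent short genes with 2 neighbours lay below them, and the median difference over the 43 was -3.31 on the same scale. In the near-silent comparison genes 444 lay below and 56 above, with a median of -2.92, and here too the class was chosen for its level. KL911_004110, of 276 bases on chromosome 3, had 1.11, 0.756 and 1.95 TPM between genes at 285 and 397 TPM. KL911_001435, of 228 bases on chromosome 5, had 0.537, 1.12 and 0.526 TPM beside genes at 56.0 and 942 TPM. KL911_005149, of 219 bases on chromosome 7, had 0.279, 0.212 and 0 TPM beside genes at 783 and 23.3 TPM. KL911_001720 on chromosome 4 and KL911_003419 on chromosome 5 had means of 1.88 and 0.410 TPM, with a neighbour at 2222 TPM beside the former. In all 5 a transcribed neighbour lay within 500 bases, and the counts of the short gene were at most 30 in any library. Near-silent neighbours were also common: 28 of 87 neighbours of near-silent short genes (32.2%) were near-silent, against 6.73% of the neighbours of short genes between the limits. In the comparison genes these shares were 37.0% (375 of 1013) and 7.63%. Adjacent near-silent short genes, such as KL911_002667 with KL911_002668, enter the 28 from both sides.

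Across all short genes the level resembled that of the neighbours weakly. Spearman's rho between mean TPM and the mean of both neighbours was 0.268 over 283 short genes and 0.232 over 4728 comparison genes. It was highest for an upstream neighbour on the same strand, 0.417 over 109 short genes against 0.170 over 2126 comparison genes, and lowest for a convergent downstream neighbour, 0.0636 over 164 short genes against 0.172. These values are descriptions across genes that share the same libraries and, in part, the same neighbours.

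Short genes stood next to each other in 16 places, 15 of them pairs and 1 a run of 3, with 33 short genes in all. The run of 3 lay on the minus strand near the right end of chromosome 4. KL911_005276 had 5.28, 6.15 and 6.98 TPM, KL911_005404 had 0.956, 0.217 and 0.374 TPM and KL911_005408 had 5.58, 5.13 and 3.59 TPM. All 3 were within 6.21 kb of the end. A divergent pair named after its values were seen was KL911_003453 and KL911_003454 on chromosome 5, both of 396 bases and 271 bases apart. KL911_003453, at 325031 to 325426, had 2792, 2728 and 2680 TPM, and KL911_003454, at 325698 to 326093, had 2751, 2736 and 2797 TPM. The levels of this pair overlapped in the 3 libraries.

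Replicate spread was tested over all genes with a mean of at least 10 CPM, the count scaled to equal library totals. Of 284 short genes, 203 reached that level. Their counts differed between libraries by more than counting error for 160 (78.8%), by chi-square at an adjusted p under 0.05, against a background of 81.4% of 4578 genes. A difference of at least 2-fold as well was found for 2 of the 203 (0.985%), against a background of 0.633%, or 29 of 4578 genes. The share among short genes was thus near that of all genes.

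The 2 were KL911_002030 and KL911_000621. KL911_002030, of 348 bases on chromosome 6 (486616 to 486963, minus strand), had 194, 162 and 80.1 TPM, a highest-to-lowest ratio of 2.39. KL911_000621, of 303 bases on chromosome 2 (114227 to 114529, plus strand), had 216, 264 and 122 TPM, a ratio of 2.18. Library 5 was lowest for both, and without it 0 of 199 short genes were called by the same chi-square with TMM scaling. At an unadjusted p under 0.05, 112 of the 199 differed, none of them 2-fold, and scaling by library totals called 0 as well. Without library 4, 1 was called. Next in ratio came KL911_001766 on chromosome 4, with 34.0, 42.7 and 22.5 TPM, KL911_002240 and KL911_003156 on chromosome 7, with 67.2, 49.1 and 82.8 TPM.

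At matched depth, the median spread of short genes was close to that of longer genes. The coefficient of variation (CV) of the scaled CPM had a median of 6.54% in the 203 tested short genes and 6.58% in 4063 comparison genes. Those medians were not matched for depth. With a mean count of 10 to 100 the median CV was 30.7% in 31 short genes and 29.2% in 273 comparison genes. At 100 to 1000 counts it was 10.6% and 11.2%, at 1000 to 3000 counts 7.11% and 6.87%, and above 10000 counts 5.87% and 5.75%. The biological coefficient of variation from edgeR had a median of 0.105 over 255 short genes (binomial interval 0.101 to 0.111). Over 4589 comparison genes its median was 0.0941 (0.0929 to 0.0952). These intervals pool genes of all depths, and they stood apart. Within 100 to 1000 counts the medians were 0.130 and 0.132, and within 1000 to 3000 counts 0.0997 and 0.0958.

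**Figure D5:**
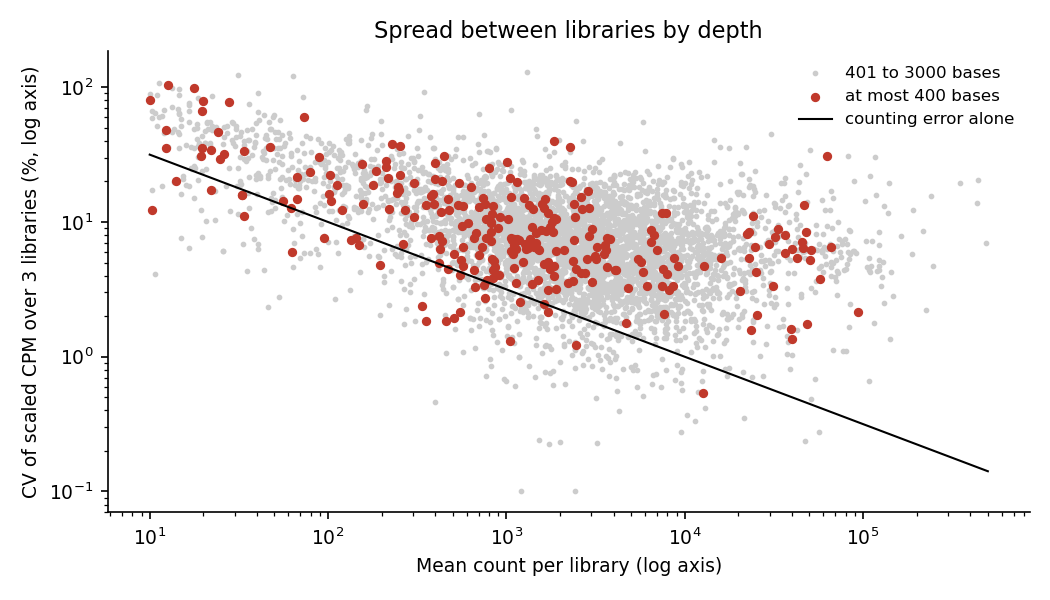
Coefficient of variation of scaled CPM over the 3 libraries (%, log axis) against the mean count per library (log axis) for genes with a mean count of at least 10, with genes of at most 400 bases in red, comparison genes in grey, and the line for counting error alone; values under 0.1% are drawn at 0.1%. Red points follow the grey cloud, and the median CV of 10.6% and 11.2% at 100 to 1000 counts lies above the line for both.

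The libraries ordered the abundant short genes unequally. After TMM scaling, 26 of the 32 very high short genes were higher in library 5 than in library 1 (81.3%), with a median log2 difference of 0.15. The same 26 of 32 count was found with median-of-ratios scaling and with library totals. Among very high genes above 400 and up to 600 bases 35 of 44 were higher in library 5 (79.5%, median 0.12), and among those above 600 and up to 1000 bases 33 of 46 (71.7%, median 0.10). Above 1000 and up to 2000 bases 13 of 47 were (27.7%, median -0.05), and above 2000 and up to 3000 bases 7 of 9 (77.8%, median 0.06). Within the short genes the count was 5 of 5 up to 250 bases and 1 of 4 above 250 and up to 300 bases. It was 9 of 10 in the class up to 350 bases and 11 of 13 in the class up to 400. The lowest shares among these classes were in that class of only 4 genes and in the class above 1000 and up to 2000 bases. Over all tested genes the median was 0.01. The shift is below the 2-fold limit used above, and the part played in it by gene length, level or RNA quality was not tested.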

How the data were processed

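The deposited counts are reads per gene from featureCounts 2.0.1, run by the authors per the file headers with strand setting 1 on an annotation of their own. The submitters' processing notes also name HISAT2 2.2.1, SAMtools, deepTools and HTSeq with no role. The build is not given in the sources used here. The TPM values are the authors' deposited values; recomputed TPM matched within 1% for all short genes with a count. The counts of each library were equal in its separate and joint files for all 5345 genes, and 0 per-sample columns were left unused. Depth was 34047362 to 44734719 counts.

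Genes were grouped by length, and near-silent (under 5 TPM) and very high (over 1000 TPM) classes were set on the mean of 3 libraries. Members, classes and tests were chosen with earlier results of these data known. Genes are not replicates, so differences between length groups carry no test other than the exact one over libraries. Dispersions came from edgeR 4.0.16 after TMM scaling and filterByExpr, and DESeq2 1.42.0 was the alternative (R 4.3.3). Chi-square tests of the 3 counts were adjusted by Benjamini-Hochberg over all genes with a mean of at least 10 CPM, and calls needed both a ratio of at least 2 and an adjusted p under 0.05. Intervals are exact binomial ones at 95%. The statistics were tested on simulated data. Tables were handled with pandas 2.3.3 and numpy 2.4.6 in Python 3.11.15, tests with scipy 1.17.1 and statsmodels 0.14.6, and plots with matplotlib 3.10.9.

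Named genes were the 10 highest, the 5 shortest, the first 5 without a count, the 5 with the highest ratio, those called varying, the 3 highest near an end, the longest run of adjacent short genes, overlapping genes, the 3 longest and the 3 just outside the limit, and the 5 farthest above and below their neighbours. Other named genes were chosen after their values were seen. No sequence was used. Product classes could not be formed, because no table used here gives products.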

Additional observations from a re-analysis of the deposited data

How the results depend on the processing

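The setting without the 8 short genes whose length differs from RefSeq was chosen after seeing the data. The log2 difference of the short median kept its direction under all 12 settings. It was 0.58 with a pseudocount of 10, 0.89 among genes with 10 counts or more, 0.30 with TPM by overlapping start positions, 0.25 for genes of at most 300 bases, 0.56 for at most 500 bases, 0.78 without genes within 20 kb of an end, 0.68 without the 8 genes, and 0.65 to 0.67 without 1 library. The near-silent share was 8.10% under 1 TPM, 18.0% under 10 TPM, 16.9% with overlapping start positions, 21.8% at 300 bases, 14.2% at 500 bases, 13.0% without the ends, 14.1% without the 8 genes, and 15.1% to 15.8% without 1 library. The very high share was 17.6% over 500 TPM, 8.45% over 2000 TPM, 10.9% with overlapping start positions, 8.18% at 300 bases, 10.6% at 500 bases, 11.9% without the ends, 11.6% without the 8 genes, and 11.3% without any 1 library. Among the comparison genes 5.10% were under 1 TPM. With overlapping start positions 10.5% of them were near-silent and 3.18% very high, and without the ends 9.24% and 3.12%. For the limits of 10, 500 and 2000 TPM the comparison share was not computed. The median BCV was 0.101 with DESeq2, 0.114 at 300 bases, and 0.0981 to 0.125 without 1 library. Genes called varying numbered 6 of 243 with a CPM minimum of 1, 1 of 87 with a minimum of 50, and 8 of 203 at a ratio of 1.5. At 300 bases 0 of 65 were called by chi-square with TMM scaling, and 51 had an unadjusted p under 0.05. Without 1 library 0 to 2 were called. For the other CPM minima, the ratio of 1.5 and the sets without 1 library, the share called over all genes was not computed. Within 50 kb of an end lay 9.15% (interval 6.07% to 13.1%), against 7.38% of the comparison genes (6.65% to 8.16%). Of genes of at most 300 bases, 42.7% were on the plus strand. The nearer gap stayed between 59.5 and 78.5 bases under 3 settings. A looser or tighter limit on TPM, on the ratio or on the distance from an end can move a share or count only in a fixed direction. For all other changes, among them those with the limit on length or counts and those without the ends, the cause was not tested. Depth limits the near-silent genes, 29 of which had under 10 counts in a library. No paired analysis was possible because all 3 libraries form 1 group.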

Other observations

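RefSeq listed 289 genes of at most 400 bases in its assembly, 10 of which had no row in the deposited table. The 8 short genes with another length in RefSeq included 5 of the 44 near-silent ones and 0 of the 32 very high ones. KL911_000811, annotated with 282 bases by the authors and 2265 in RefSeq, had 202, 181 and 161 TPM, and KL911_005371, with 375 and 878 bases, had 95.2, 104 and 93.9 TPM. KL911_000780, with 306 and 3423 bases, had 30.0, 37.2 and 38.5 TPM.

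The short genes had 91 distinct lengths, 64 of which recurred, and 257 of the 284 shared theirs with at least 1 other. The 1 short gene without a RefSeq match, at 922996 to 923391 on the minus strand of chromosome 5, had 17.3, 16.0 and 10.2 TPM. Upstream of KL911_000001, a near-silent short gene of 210 bases on chromosome 3 with a mean of 1.34 TPM, lay a gap of 9067 bases, far longer than the median of 144 bases upstream of short genes.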
